A study of Mus musculus with 9 samples.

Results

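The subunits of the mitochondrial respiratory chain and the ATP synthase were followed in mouse PancOVA tumour cells after co-culture with fibroblasts. They were chosen by gene symbol alone: the rows whose symbol begins with Nduf followed by a, b, c, s or v, with Sdh followed by a to d, with Uqcr, with Cox followed by 4 to 8, with Atp5, or with mt-Nd, mt-Co, mt-Cytb or mt-Atp. The symbol rule uses no measured value, but it was set with earlier results of these data known. The pattern matched 98 rows of the deposited table of 41457 genes. Of these, 92 reached 1 TPM (transcripts per 1000000) in at least 3 libraries, as did 11704 genes in all, and 6 did not. The 92 are called members here. Nuclear genes encode 79 of them and the mitochondrial chromosome encodes the other 13.

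Messenger RNA was sequenced from PancOVA tumour cells that had spent 48 h in matrigel beside 1 of 3 kinds of pancreatic stellate cell, with 3 libraries per group. All fibroblasts came from a stellate cell culture that carries the surface marker CD90.1 and had first been kept in matrigel to make them quiescent. In the group labelled qPSC they stayed the quiescent control, in the group labelled myCAF they were primed for 48 h with 2 ng/ml TGF-β1, and in the group labelled iCAF they were primed for 48 h for the condition that the labels call Tc17. PancOVA cells were stained with an eFluor dye before mixing and recovered by that dye with a cell sorter. The labels give no genetic difference between the groups, and every library is the same PancOVA line, so each comparison is between tumour cells that differ in the fibroblasts they were grown with. Nothing in the labels says whether the 3 libraries of a group came from separate cultures, so every p-value below rests on a spread among libraries that may be technical.

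The respiratory chain carries electrons from NADH and succinate to oxygen and pumps protons across the inner mitochondrial membrane, and the ATP synthase uses the resulting gradient to make ATP. Complex I (the Nduf and mt-Nd genes) oxidises NADH, complex II (Sdh) oxidises succinate, complex III (Uqcr and mt-Cytb) passes electrons to cytochrome c, complex IV (Cox and mt-Co) reduces oxygen, and complex V (Atp5 and mt-Atp) is the ATP synthase. Complex II is built from nuclear genes alone, whereas the other complexes combine nuclear and mitochondrial subunits. The mitochondrial subunits sit in the membrane cores of their complexes and are transcribed as long precursors from both strands of the mitochondrial chromosome, which are then cut into single messenger RNAs. The nuclear genes are transcribed separately, and many are known targets of the nuclear respiratory factor NRF1 and of the ETS-family factor GABP.

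Sequences of 1 mitochondrial message and 3 nuclear promoters are given because they belong to groups of members that are described below as varying together. The message of mt-Atp8, the small membrane subunit of the ATP synthase, overlaps that of mt-Atp6, the proton channel subunit, on the same strand, so that both are read from 1 continuous RNA. It lies on the plus strand of the mitochondrial chromosome at chrM:7766-7969 (GRCm38, GENCODE M21) and has no intron. Capitals mark the 43 bases from position 7927 to 7969 that the annotation gives to both genes.
mt-Atp8: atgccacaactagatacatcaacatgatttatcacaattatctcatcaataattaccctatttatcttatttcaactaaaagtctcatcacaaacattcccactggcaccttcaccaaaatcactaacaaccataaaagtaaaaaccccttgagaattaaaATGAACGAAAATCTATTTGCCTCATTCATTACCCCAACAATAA

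The promoters are those of Cox5b, a nuclear subunit of complex IV, of Cox8a, the ubiquitous form of its smallest subunit, and of Ndufb2, an accessory subunit of complex I. Each run covers 150 bases before and 30 bases after the RefSeq start of the gene (GRCm38.p6), read in the direction of transcription. They are chr1:36691337-36691516 on the plus strand for Cox5b, chr19:7217587-7217766 on the minus strand for Cox8a and chr6:39592415-39592594 on the plus strand for Ndufb2. Capitals mark the ETS core CGGAAG, which in Cox8a lies on the other strand and reads CTTCCG. The run of Ndufb2 holds none of the motifs searched.
Cox5b: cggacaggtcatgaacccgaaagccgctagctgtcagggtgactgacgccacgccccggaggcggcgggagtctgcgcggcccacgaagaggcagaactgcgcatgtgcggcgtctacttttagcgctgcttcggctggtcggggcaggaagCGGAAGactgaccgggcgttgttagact
Cox8a: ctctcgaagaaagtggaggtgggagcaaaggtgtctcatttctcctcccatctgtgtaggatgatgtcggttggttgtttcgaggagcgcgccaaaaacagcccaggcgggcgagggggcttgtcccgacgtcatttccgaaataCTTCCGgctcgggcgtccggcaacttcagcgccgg
Ndufb2: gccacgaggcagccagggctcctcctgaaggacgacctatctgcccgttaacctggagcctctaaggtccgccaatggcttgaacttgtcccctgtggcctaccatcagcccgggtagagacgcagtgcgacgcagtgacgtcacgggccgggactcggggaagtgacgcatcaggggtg

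Promoter sequence from 250 bases before to 50 bases after the start was found by symbol for 64 of the 79 nuclear members. The NRF1 motif, GCGCA, any base and GCGC, occurred on either strand in 16 of the 64 (25%), against 5.19% of 27025 promoters of the same length. The ETS core CGGAAG occurred in 27 (42.2%) against 18.8%. The YY1 motif, AA, any base and ATGGCGG, occurred in 6 (9.38%) against 1.59%. The YY1 motif can end in the first 3 letters of the ETS core, so 1 stretch can hold parts of both. The counts describe letters in these windows and say nothing of binding in these cells.

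1 library stood apart and touches most of what follows. iCAF replicate 3 correlated with the other libraries of its group at 0.980 and 0.981 on the log2 scale, against 0.991 to 0.997 within every other pair of replicates. Relative to the mean of the other 8 libraries, the median gene tested was lower there by 0.39 on the log2(TPM + 1) scale, and its cytosolic ribosomal protein genes held 20.1% of all TPM, against 13.5% to 14.4% elsewhere. Results that include the iCAF group are therefore given with and without it. The library sizes implied by the values were 38870602 to 45317258 reads. Markers of 3 kinds of cell were also summed. 18 fibroblast genes summed to 1021 TPM in iCAF replicate 3 and to 1887 to 2321 TPM in the other 8, most of it Fn1 and Sparc, while Fap, Lum and Col1a2 were at no more than 0.279 TPM. Of the 14 of them that were tested, 1 was called with all 9 libraries: Postn, lower in iCAF than in myCAF, as it also was without iCAF replicate 3. In that second fit Acta2, Postn and Sparc were called higher in myCAF than in qPSC. 16 leukocyte genes summed to 6.27 to 8.25 TPM: only Cd68 and Lyz2 passed 1 TPM in any library, and Cd8a, S100a9, Ncr1 and Nkg7 were listed at 0 in all 9. 6 keratin and epithelial genes summed to 1589 to 1815 TPM, nearly all of it Krt8 and Krt18, but Epcam and Cdh1, which define epithelial cells, were at or near 0. The part of fibroblast RNA in the results below was not tested.

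The level of the chain is described first. The 13 mitochondrial members together held 7.01%, 5.82% and 5.25% of all TPM in the iCAF libraries, 5.34%, 5.24% and 6.75% in the myCAF libraries and 5.83%, 5.86% and 5.56% in the qPSC libraries. The 79 nuclear members held 1.79%, 1.73% and 2.30%, then 1.70%, 1.71% and 1.65%, then 1.71%, 1.70% and 1.74%. The groups overlapped for the mitochondrial share, with means of 6.03% ± 0.90, 5.78% ± 0.84 and 5.75% ± 0.17 (SD, n = 3 each), and the nuclear share was highest in iCAF replicate 3. The ratio of the mitochondrial to the nuclear sum was 2.28 in that library and 3.06 to 4.09 in the other 8. Because the libraries were selected for polyadenylated RNA, these shares are of that RNA and not of all RNA in the cell. In such bulk samples, fewer cells of a type and less RNA per cell cannot be told apart.

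Among the mitochondrial members, mt-Co1, the catalytic subunit of complex IV, had the highest mean over the 9 libraries at 9794 TPM, and mt-Nd6, a complex I subunit and the only one encoded on the light strand, had the lowest at 1027 TPM. The median of the 13 was 3478 TPM, against 160 TPM for the nuclear members. Within nuclear complex I the lowest mean was that of Ndufb2 at 15.4 TPM and the highest that of Ndufa2, an accessory subunit, at 361 TPM. Complex II ran from 105 TPM for Sdhc to 255 TPM for Sdhd, both membrane anchors. Complex III ran from 134 TPM for the core protein gene Uqcrc1 to 303 TPM for Uqcr10, a small accessory subunit. Complex IV ran from 1.0 TPM for Ndufa4l2 to 1286 TPM for Cox8a, and complex V from 4.3 TPM for Atp5s, which is not a structural subunit, to 954 TPM for Atp5b, the catalytic beta subunit.

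That order depends on the length each count was divided by. The deposited values multiplied by the union of a gene's annotated exons came out as whole reads (within 0.05) for 97.8% to 98.1% of genes with under 200 reads. For many members that union is much longer than the main message: it is 5628 bases for Ndufb2 against 455 bases of its principal transcript, and 6443 against 544 bases for Atp5l. Rescaled to the principal transcript, Ndufb2 rose from 15.4 to 190 on the same scale, and the ratio of the highest to the lowest member fell from 23.5 to 9.55 within nuclear complex I and from 24.9 to 5.69 within complex V (members over 5 TPM). In complex III it went the other way, from 2.26 to 6.87. The order of levels within a complex therefore moves with the divisor, which does not touch comparisons of 1 gene between libraries.

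Several subunits of complex IV exist as a ubiquitous gene and a gene known from heart and skeletal muscle, lung or testis, and here the ubiquitous forms prevailed. Cox4i1 was at 720 to 1207 TPM and Cox4i2, its lung and hypoxia-linked partner, was at 0 in 8 libraries and at 0.098 TPM, 1 read, in qPSC replicate 1. Cox6a1 was at 619 to 1030 TPM and the muscle form Cox6a2 at 0.21 to 2.83 TPM. Cox6b1 was at 636 to 1096 TPM while the testis form Cox6b2 was listed at 0 in all 9 libraries. Cox7a2 was at 226 to 319 TPM and the muscle form Cox7a1 at 7.93 to 19.4 TPM. Cox8a was at 1035 to 1512 TPM, Cox8b was at 0.43 TPM in qPSC replicate 1 and at 0 elsewhere, and Cox8c was at 0 in all 9. Cox7b was at 258 to 386 TPM against at most 0.45 TPM for Cox7b2, and Ndufa4, now counted with complex IV, at 229 to 341 TPM against 0.65 to 1.41 TPM for Ndufa4l2. Cox6c was at 134 to 183 TPM. The rows left out by the filter were Cox4i2, Cox6b2, Cox7b2, Cox8b, Cox8c and Atp5o_1, 1 of the rows that carry the name Atp5o, at no more than 0.20 TPM. The other such row, Atp5o_2, was at 271 to 383 TPM. Just inside the filter were Ndufa4l2, at 1 TPM or more in 4 libraries, and Cox6a2, in 6.

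The 3 nuclear genes for the c-ring of the ATP synthase encode the same mature protein. Their means over the 9 libraries were 65.1 TPM for Atp5g1, 359 TPM for Atp5g3 and 435 TPM for Atp5g2. Every 50-base stretch of the Atp5g2 message, and 66.0% of those of Atp5g1, also occurs in another annotated gene, so reads may have been split between copies. The same held for 68.5% of the Atp5l message, 53.0% of Cox7c, 50.5% of Atp5h and 43.2% of Uqcrb.

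The comparison of iCAF with qPSC co-cultures asked what fibroblasts primed for the Tc17 condition changed. No member was called: 0 of 92 passed an adjusted p of 0.05 (limma on log2(TPM + 1) over all genes tested, Benjamini-Hochberg), where 0.598% of the 11704 genes did, all of them lower in iCAF. Without adjustment 8 members had a p under 0.05, all with a higher mean in iCAF (8.70%, against 1.95% of all genes higher and 13.9% lower). limma-voom on the reads implied by the values called 0 members as well. Its share over all genes with all 9 libraries is not given here, so that 0 has no background beside it. The fit without iCAF replicate 3 also called 0 members (1.51% of all genes passed). Among the nuclear members, 71 of 79 had a positive log2 fold change, with a median of 0.16, while the median of all genes tested was -0.15 and 22.6% were positive. Without iCAF replicate 3 the count was 55 of 79 and the median 0.05, against -0.03 and 40.5% over all genes. The median change of all genes has to be subtracted to read a member's change relative to the rest of the table.

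The greatest positive differences were those of Cox7a1, Atp5e and mt-Nd3. Cox7a1 and mt-Nd3 are given further on. Atp5e, the epsilon subunit of the ATP synthase, was at 143, 130.5 and 315 TPM in the iCAF libraries, 131, 138 and 122 TPM in the myCAF libraries and 125, 125 and 131 TPM in the qPSC libraries. Its log2 fold change of 0.50 ± 0.27 (SE, adjusted p = 0.345) rested on iCAF replicate 3 and was 0.10 without it (adjusted p = 0.433). Uqcrh, the hinge protein of complex III, was at 174, 174 and 267 TPM in iCAF, 167, 162 and 160 TPM in myCAF and 157, 154 and 151 TPM in qPSC. Its iCAF libraries all lay above the others, and the log2 fold change was 0.38 ± 0.15 (adjusted p = 0.30) with and 0.17 (adjusted p = 0.0824) without iCAF replicate 3. Sdhd, a membrane anchor of complex II, was at 279, 260 and 279 TPM in iCAF, 254, 260 and 246 TPM in myCAF and 238, 245 and 237 TPM in qPSC. It was 1 of the few whose difference from qPSC hardly moved with that library, at 0.18 ± 0.06 (adjusted p = 0.281) with it and 0.17 (adjusted p = 0.129) without it, and neither passed. The other Sdh genes differed less: the flavoprotein gene Sdha had a log2 fold change of -0.05, the iron-sulfur gene Sdhb one of 0.06 and Sdhc one of 0.07 (adjusted p = 0.739, 0.713 and 0.541).

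For 20 of the 92 members (21.7%) each iCAF library lay above each qPSC library, and for none did each lie below. Over all genes tested the shares were 4.67% and 23.2%. Without iCAF replicate 3 the counts were 29 (31.5%) and 6 (6.52%), against 14.5% and 25.1%. The 20 included Sdhd, Uqcrh, Uqcr10, Uqcr11, mt-Co2, mt-Nd6, Atp5f1 and Atp5k. Members of every complex were among them.

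**Figure D1:**
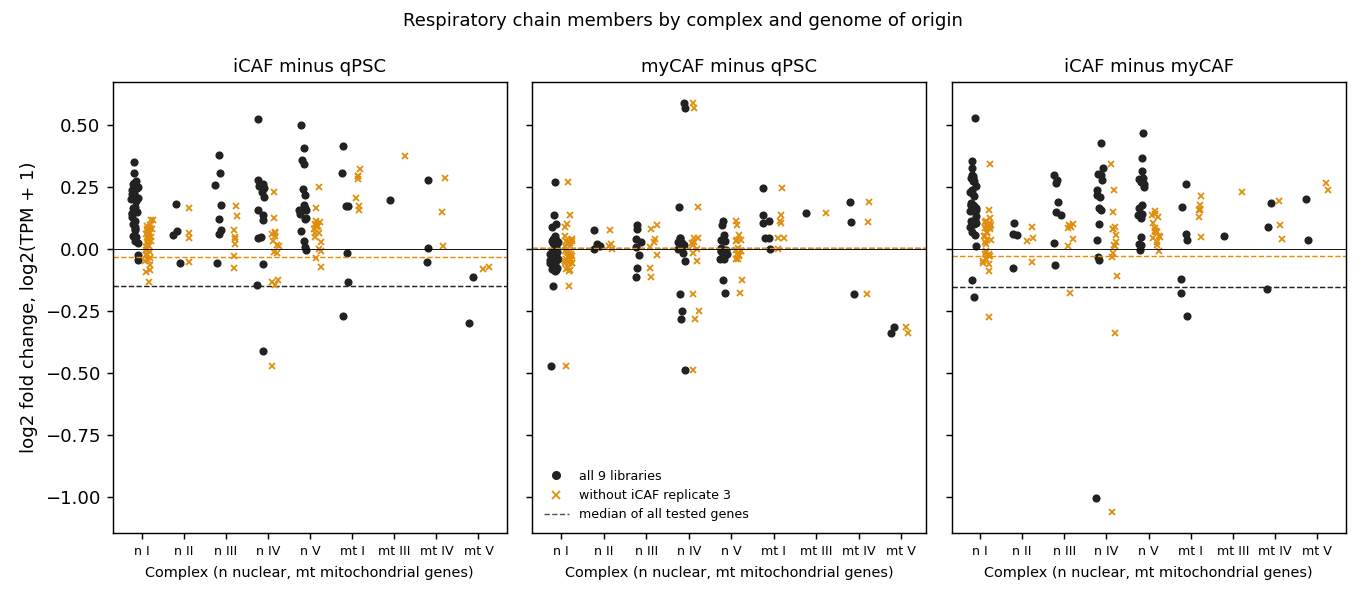
Log2 fold change of each of the 92 members on the log2(TPM + 1) scale (vertical axis) by complex and genome of origin (horizontal axis) for iCAF minus qPSC, myCAF minus qPSC and iCAF minus myCAF. Black points are from all 9 libraries and orange crosses from the fit without iCAF replicate 3; dashed lines are the medians of all genes tested, -0.15 with and -0.03 without that library for iCAF minus qPSC. Nuclear members lie mostly above the dashed line in both comparisons with iCAF, with and without iCAF replicate 3. For myCAF minus qPSC they are split 39 above and 40 below 0. The 2 mitochondrial members of complex V lie below 0 in both comparisons with qPSC.

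The mitochondrial members split in that comparison. With all 9 libraries 7 of 13 had a positive log2 fold change, with a median of 0.005; without iCAF replicate 3 it was 11 of 13, with a median of 0.21. mt-Nd3, a small membrane subunit of complex I, was at 2908, 2202 and 3271 TPM in iCAF, 2295, 2623 and 2441 TPM in myCAF and 1958, 2240 and 2005 TPM in qPSC. It had the greatest positive difference among them, 0.42 ± 0.13 (adjusted p = 0.251), but iCAF replicate 2 lay within the qPSC range, and leaving that library out gave 0.58 with an adjusted p of 0.0293 (1.66% of all genes passed in that fit). The range of its adjusted p over the alternatives was 0.0293 to 0.556. mt-Co2, which carries the copper site that accepts electrons from cytochrome c, was at 10153, 9644 and 9754 TPM in iCAF, 9065, 8316 and 10507 TPM in myCAF and 7856, 8687 and 7820 TPM in qPSC. Each iCAF library lay above each qPSC library, yet the difference of 0.28 ± 0.09 did not pass (adjusted p = 0.257, and 0.178 without iCAF replicate 3). mt-Cytb, the core of complex III and the only mitochondrial gene of that complex, was at 5529, 4826 and 3574 TPM in iCAF, 4283, 4029 and 4938 TPM in myCAF and 3933, 4302 and 3725 TPM in qPSC. Its log2 fold change without iCAF replicate 3, 0.38, was the greatest of the 13 (adjusted p = 0.114), and with it 0.20 (adjusted p = 0.434).

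In iCAF replicate 3 the mitochondrial members moved apart. mt-Nd4l was at 621 TPM there and at 1186 to 1604 TPM in the other 8 libraries. mt-Nd5 was at 769 TPM against 1174 to 1665 TPM, and mt-Nd4 at 1384 TPM against 1938 to 2709 TPM. These 3 complex I subunits, which are neighbours on the chromosome, were all lowest of 9 in that library. mt-Nd6, which is read from the opposite strand and overlaps the end of mt-Nd5 by 14 bases, was highest of 9 there, at 1399 TPM against 879 to 1138 TPM. mt-Nd3 was also highest of 9. In all, 7 of the 13 were at their lowest in that library and 2 at their highest, whereas 66 of the 79 nuclear members were at their highest and 5 at their lowest.

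**Figure D2:**
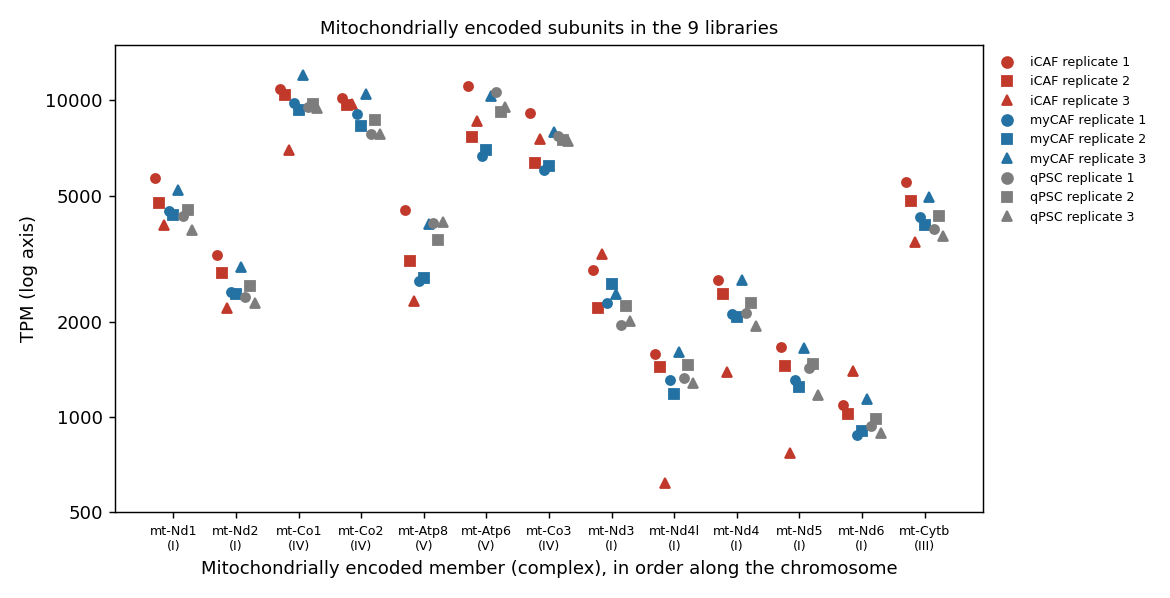
TPM of the 13 mitochondrially encoded members (vertical log axis) in each of the 9 libraries, in their order along the chromosome (horizontal axis, complex in brackets). Colours are the co-culture groups and marker shapes the replicate. mt-Nd4l and mt-Nd5 fall to 621 and 769 TPM in iCAF replicate 3, and mt-Atp8, mt-Atp6 and mt-Co3 are all low in myCAF replicates 1 and 2 and iCAF replicate 2.

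mt-Atp8, mt-Atp6 and mt-Co3, which follow each other on the chromosome and overlap by 43 bases and by 1 base, were low in the same libraries. mt-Atp6 was at 11110, 7687 and 8613 TPM in iCAF, 6689, 6978 and 10321 TPM in myCAF and 10652, 9194 and 9497 TPM in qPSC. mt-Atp8 was at 4507, 3116 and 2328 TPM, then 2683, 2758 and 4081 TPM, then 4089, 3622 and 4118 TPM. mt-Co3, the third core subunit of complex IV, was at 9132, 6348 and 7528 TPM, then 6013, 6201 and 7924 TPM, then 7728, 7507 and 7445 TPM. For all of them myCAF replicates 1 and 2 and iCAF replicate 2 held the 3 lowest values, apart from the low mt-Atp8 value in iCAF replicate 3. Over the 8 libraries other than that one, Pearson's r of log2(TPM + 1) was 0.98 between mt-Atp6 and mt-Atp8, 0.96 between mt-Atp6 and mt-Co3 and 0.95 between mt-Atp8 and mt-Co3. Between mt-Atp6 and the remaining mitochondrial members it ran from -0.01 with mt-Nd3 to 0.61 with mt-Nd4l. It was 0.14 with mt-Co2, 0.28 with mt-Cytb, 0.57 with mt-Nd5 and 0.58 with mt-Nd6. Between mt-Co3 and mt-Nd4l it was 0.66. These are descriptions over 8 libraries that share their total, so that a rise of 1 gene lowers the rest.

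The sum of the 3 genes divided by the sum of the other 10 was 0.545, 0.418 and 0.543 in iCAF, 0.405, 0.437 and 0.494 in myCAF and 0.628, 0.531 and 0.610 in qPSC. The myCAF and qPSC libraries did not overlap in this ratio, which was chosen after the values had been seen and is given as a description. In the fits, the complex V genes mt-Atp6 and mt-Atp8 had log2 fold changes of -0.32 ± 0.18 and -0.34 ± 0.23 in myCAF against qPSC, and neither passed (adjusted p = 0.990 and 1.000), while the other 11 ranged from -0.18 for mt-Co3 to 0.25 for mt-Nd3. The ratio of mt-Atp8 to mt-Atp6 was 0.270 in iCAF replicate 3 and 0.384 to 0.434 in the other 8.

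Stretches of the mitochondrial chromosome are also present in the nuclear genome, and 50-base reads from them cannot be placed by sequence alone. In the GENCODE M21 transcripts, each 50-base stretch of mt-Co2, 99.9% of those of mt-Co3, 99.5% of mt-Atp6, 98.8% of mt-Nd4l and 98.0% of mt-Nd3 occurs in another annotated gene too. The share was 62.2% for mt-Nd4, 51.1% for mt-Co1, 8.19% for mt-Nd2 and 7.61% for mt-Nd5, and 0% for mt-Atp8, mt-Cytb, mt-Nd1 and mt-Nd6. How such reads were assigned is not given in the sources used here.

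The comparison of myCAF with qPSC co-cultures asked what TGF-β1-primed fibroblasts changed. With all 9 libraries in the fit 0 of 92 members passed, as did 0% of all 11704 genes. Without adjustment 3 members were higher (3.26%, against 2.67% of all genes) and 3 lower (3.26%, against 3.77%). limma-voom on the implied reads called 0 members, with its share over all genes not given here. iCAF replicate 3 has no part in this comparison except through the estimate of spread that the groups share. Without it, 1 member was called, Cox5b, lower in myCAF (1.09% of members, against 2.83% of all genes). The members' share is thus no greater than the background. The 79 nuclear members were split 39 to 40 between positive and negative, with a median of -0.002 against 0.006 for all genes. Without myCAF replicate 3 they were split 54 to 25, with a median of 0.03.

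Cox5b, a nuclear subunit of complex IV that binds zinc, was at 254, 268 and 312 TPM in iCAF, 197, 182 and 243 TPM in myCAF and 296, 273 and 297 TPM in qPSC. Each myCAF library lay below each library of the other groups. The means were 207 ± 31.6 TPM in myCAF and 289 ± 13.4 TPM in qPSC (SD, n = 3). The log2 fold change was -0.49 ± 0.12 (SE, adjusted p = 0.226 with all 9 libraries and 0.0347 without iCAF replicate 3). It also passed when only the myCAF and qPSC libraries were fitted (adjusted p = 0.0396, 3.29% of all genes called). It passed too when iCAF replicate 3 was left out and the trend with gene length was removed (0.0459, 3.55% called), each library was centred on its median (0.0320, 2.97%) or limma-voom was run on the implied reads (0.0267, 3.21%). Over all alternatives its adjusted p ranged from 0.0267 to 0.763. Against iCAF the difference was 0.43 ± 0.12 (adjusted p = 0.159).

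Ndufb2, an accessory subunit of complex I, was also lowest in the 3 myCAF libraries. It was at 15.4, 14.9 and 22.7 TPM in iCAF, 11.8, 9.78 and 13.9 TPM in myCAF and 16.7, 15.8 and 17.5 TPM in qPSC. The log2 fold change between myCAF and qPSC was -0.47 ± 0.17 (adjusted p = 0.572), with an adjusted p of 0.0517 without iCAF replicate 3. It passed under each of the 3 settings that leave out that library and also remove the length trend, centre the libraries or use limma-voom (adjusted p = 0.0459, 0.0470 and 0.0394).

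Cox8a, the smallest nuclear subunit of complex IV, was at 1349, 1308 and 1512 TPM in iCAF, 1113, 1035 and 1237 TPM in myCAF and 1366, 1284 and 1371 TPM in qPSC. Its difference of -0.25 ± 0.09 did not pass with all libraries (adjusted p = 0.516) or without iCAF replicate 3 (0.0702). Cox5a, which like Cox5b lies on the matrix side of complex IV, was at 124, 138 and 189 TPM in iCAF, 113, 111 and 130 TPM in myCAF and 144, 138 and 149 TPM in qPSC. Its difference of -0.28 ± 0.14 did not pass either (adjusted p = 0.896, and 0.0628 without iCAF replicate 3). Atp5d, the delta subunit of the ATP synthase, was at 239, 238 and 299 TPM in iCAF, 211, 205 and 233 TPM in myCAF and 238, 239 and 257 TPM in qPSC, a difference of -0.18 ± 0.10 (adjusted p = 0.987, and 0.122 without iCAF replicate 3). In each of these 5 genes the lowest values of the 9 were those of myCAF replicates 1 and 2, and each myCAF library lay below each qPSC library.

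Over the 9 libraries the pairwise r between Cox5a, Cox5b, Cox8a, Ndufb2 and Atp5d was 0.87 to 0.98 on the log2(TPM + 1) scale, and 0.87 to 0.98 without iCAF replicate 3. These 5 were put together after their values had been seen, so the figures describe them and support nothing. Their complex partners did not share the pattern: Cox4i1, Cox6a1, Cox7a2 and Atp5b had log2 fold changes of 0.02, -0.05, 0.00 and -0.01 in myCAF against qPSC. In the promoter windows shown above, the ETS core lies in Cox5b and Cox8a and not in Ndufb2. In the longer windows searched, Cox5a held it and Atp5d did not. Of the partners, Cox6a1 and Cox7a2 held it, Atp5b did not, and no promoter was found for Cox4i1. Of all nuclear members with a promoter 42.2% held it. Of the Cox5b message 25.9% of 50-base stretches, and of the Ndufb2 message 24.4%, occur in another annotated gene as well.

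The members with the greatest positive differences in myCAF were 2 muscle forms of complex IV subunits and 1 subunit of complex I. Ndufv3, the flavoprotein 3 subunit of complex I, was at 48.8, 58.6 and 63.3 TPM in iCAF, 62.9, 65.4 and 66.2 TPM in myCAF and 51.9, 51.7 and 57.4 TPM in qPSC. Each myCAF library lay above each qPSC library, with a log2 fold change of 0.27 ± 0.10 (adjusted p = 0.609, and 0.0808 without iCAF replicate 3), and it was called only in the fit of the 6 libraries compared (adjusted p = 0.0394). Ndufb11, another complex I subunit, was at 172, 175 and 213 TPM in iCAF, 186, 188 and 179 TPM in myCAF and 166, 167 and 169 TPM in qPSC. It was called higher only without iCAF replicate 3 and with the length trend removed (adjusted p = 0.0454). Cox7a1 was at 11.9, 8.44 and 19.4 TPM in iCAF, 11.99, 16.1 and 11.3 TPM in myCAF and 7.93, 7.95 and 9.39 TPM in qPSC. The myCAF and qPSC libraries did not overlap, but the difference of 0.57 ± 0.25 did not pass (adjusted p = 0.761, and 0.080 without iCAF replicate 3). Of the 14 fibroblast markers tested, 11 had a positive log2 fold change between myCAF and qPSC, with a median of 0.27. Among them, Dcn was at 27.6, 50.2 and 26.5 TPM in iCAF, 214, 59.0 and 126 TPM in myCAF and 81.2, 99.7 and 134 TPM in qPSC, so that myCAF and qPSC overlapped. Thy1 overlapped too, at 9.04, 3.28 and 8.23 TPM in myCAF and 2.81, 4.04 and 5.40 TPM in qPSC. Postn, a matrix protein gene, was at 0.0416, 0.153 and 0.0485 TPM in iCAF, 14.6, 4.64 and 10.8 TPM in myCAF and 1.24, 1.40 and 2.38 TPM in qPSC. Acta2, the smooth muscle actin gene, was at 3.13, 3.70 and 2.03 TPM in iCAF, 4.96, 5.34 and 7.75 TPM in myCAF and 2.34, 2.25 and 3.32 TPM in qPSC. For Postn and Acta2 each myCAF library lay above each qPSC library, and both were called without iCAF replicate 3 (adjusted p = 0.0257 and 0.0282). The 3 negative markers were Fn1, Pdgfra and Pdgfrb. Fn1, the most abundant of the list, was at 1228, 1358 and 1370 TPM in myCAF and 1481, 1521 and 1524 TPM in qPSC. In the iCAF libraries Postn lay below each qPSC library. Cox7a1 lay within the qPSC range in iCAF replicate 2, and was highest of the 9 in iCAF replicate 3, the library that stood apart. The part of fibroblast RNA in the Cox7a1 and Cox6a2 values was not tested.

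Cox6a2 was at 0.21, 1.09 and 0.80 TPM in iCAF, 2.31, 1.90 and 2.83 TPM in myCAF and 1.70, 1.08 and 0.91 TPM in qPSC. The myCAF libraries were the highest of the 9 for this muscle form. These values stand on 2, 10 and 9 implied reads in iCAF, 22, 16 and 24 in myCAF and 15, 9 and 9 in qPSC, so counting error alone is large. The difference between myCAF and qPSC was 0.59 ± 0.22 (adjusted p = 0.598).

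**Figure D3:**
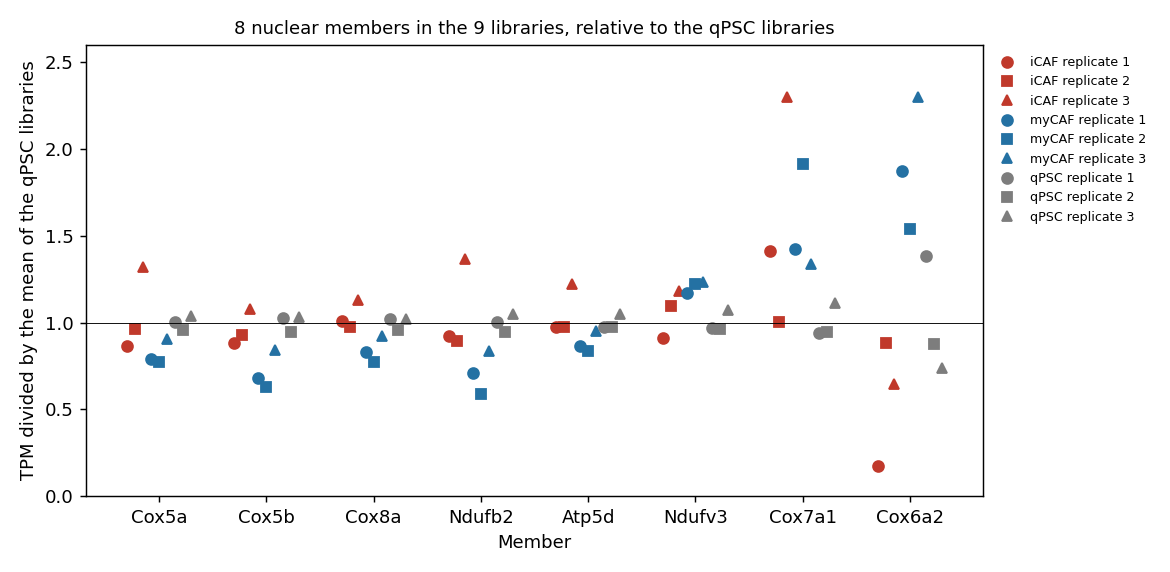
TPM of 8 nuclear members in each of the 9 libraries, divided by the gene's mean over the qPSC libraries (vertical axis, from 0). Colours are the co-culture groups and marker shapes the replicate. Cox5a, Cox5b, Cox8a, Ndufb2 and Atp5d are lowest in myCAF replicates 1 and 2, while for Ndufv3, Cox7a1 and Cox6a2 each myCAF library lies above each qPSC library; Cox6a2 rests on 2 to 24 implied reads per library.

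Groups that did not overlap were no more frequent among the members than among all genes in this comparison. 10 members were higher in each myCAF library than in each qPSC library (10.9%, against 11.3% of all genes) and 10 were lower (10.9%, against 12.5%). The 10 higher were Cox6a2, Cox7a1, Cox7a2l, mt-Nd3, Ndufb11, Ndufs1, Ndufv3, Sdhd, Uqcrh and Uqcrq. The 10 lower included Atp5d, Atp5l, Cox5a, Cox5b, Cox8a, Ndufa10, Ndufb2, Uqcrc1 and Uqcrfs1. All 7 mitochondrial genes of complex I had a positive log2 fold change, from 0.0007 to 0.25, and none passed. This rested on myCAF replicate 3: without it mt-Nd4, mt-Nd4l, mt-Nd5 and mt-Nd6 were negative, and 5 of all 13 mitochondrial members were positive (median -0.02) in place of 10 (median 0.10).

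The third comparison, iCAF against myCAF, shares its libraries with the other two, so it adds the direct contrast and no independent support. 0 of 92 members passed (0.0598% of all genes did). Without adjustment 8 were higher in iCAF (8.70%, against 2.43% of all genes) and 1 lower (1.09%, against 15.5%). limma-voom on the implied reads called 0 members, with its share over all genes not given here. The fit without iCAF replicate 3 called 0 members too (0.599% of all genes). The 1 lower was Cox6a2, with a log2 fold change of -1.0 ± 0.22 (adjusted p = 0.113), which was called only when iCAF replicate 2 was left out (-1.17, adjusted p = 0.0466, with 2.39% of all genes called). Of the members, 16 (17.4%) were higher in each iCAF library than in each myCAF library, against 4.55% of all genes, and 2, Cox6a2 and Ndufs1, were lower (2.17%, against 18.3%). With that group's replicate 3 left out it was 17 (18.5%) and 6 (6.52%), against 13.9% and 20.0%. The 16 included Cox5b, Cox8a, Ndufb2 and Atp5d with Uqcrc1, Uqcrfs1 and Ndufa10. The 13 mitochondrial members had a median of 0.05, with 9 positive, and without iCAF replicate 3 all 13 were positive with a median of 0.16, 0 of them past the test.

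The shift of the nuclear members in iCAF replicate 3 went with the length of their messages. In that library 71 of 79 nuclear members lay above the mean of the other 8 (median 0.42 on the log2 scale), while 18.7% of all genes tested did. Among the 75 nuclear members over 5 TPM with a principal transcript, the 25 shortest (366 to 596 bases) had a median shift of 0.61 and all 25 were higher. The next 25 (610 to 1001 bases) had a median of 0.48, again with all 25 higher, and the 25 longest (1046 to 3171 bases) one of 0.21, with 20 higher. Pearson's r of the shift with log2 length was -0.70 and Spearman's rho -0.63, as a description over 75 genes of 1 library. The log2 fold changes of these genes between iCAF and qPSC had an r with log2 length of -0.55 with that library and 0.02 without it, and those between myCAF and qPSC 0.003. When the trend with the union exon length was removed from all 9 libraries, 74 of 78 nuclear members were positive between iCAF and qPSC. Their median was then 0.17, against 0.002 for all genes. That length is not the message length used here, and how much of the shift goes with length was not tested.

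The greatest shifts were in short messages. Atp5e, with 421 bases, was 2.41 times and Ndufa2, with 572 bases, 2.08 times as high there as the mean of the other 8. The 2900-base message of Sdha was 0.798 times and the 2590-base message of Ndufs1 0.838 times as high. Both of these still lay above the median of all genes tested, which was lower there by 0.39. The mitochondrial members did not follow that line (r = -0.16 over 13 genes): the short mt-Nd4l and mt-Atp8 were low by 1.16 and 0.61, and mt-Nd3 was high by 0.50.

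**Figure D4:**
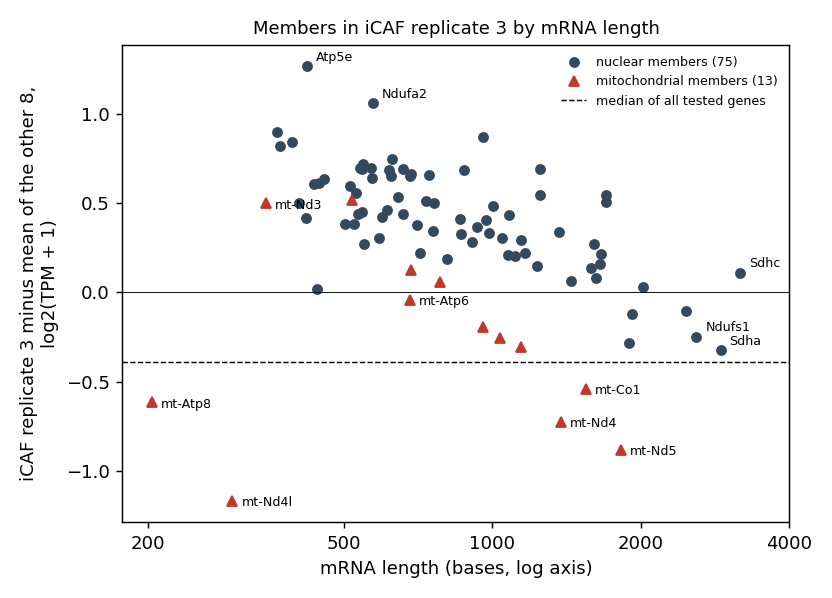
Difference between iCAF replicate 3 and the mean of the other 8 libraries on the log2(TPM + 1) scale (vertical axis) against the length of the principal transcript in bases (horizontal log axis). Dark circles are the 75 nuclear members over 5 TPM and red triangles the 13 mitochondrial members; the dashed line is the median of all genes tested, -0.39. Nuclear members fall with length from a median of 0.61 in the 25 shortest to 0.21 in the 25 longest, and the mitochondrial members lie off that trend.

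Genes that build, supply or regulate the chain were read from lists set out beside the members. With all 9 libraries 0 genes passed in any of the 3 comparisons among the assembly factors of complex I (15 tested), complex II (4), complex III (6), complex IV (20) and complex V (4), the 14 genes of mitochondrial DNA expression and the 9 regulators of mitochondrial biogenesis. Tfam, which packages mitochondrial DNA and starts its transcription, was at 33.4 to 38.9 TPM in all 9 libraries, and Polrmt, the mitochondrial RNA polymerase, at 15.6 to 22.2 TPM. Ppargc1a, the coactivator known for raising mitochondrial content in muscle and brown fat, was at most 0.0768 TPM and was not tested, and its relative Pprc1 was at 25.3 to 56.5 TPM, lowest in iCAF replicate 3. Nrf1 was at 9.52 to 13.3 TPM and Gabpa at 32.3 to 52.1 TPM, both also lowest there.

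4 further subunits fall outside the symbol pattern: Ndufab1, the acyl carrier of complex I, Cyc1 and Cycs, the cytochromes c1 and c, and Usmg5, a small ATP synthase subunit. None passed with all 9 libraries. Cyc1 was at 210.5, 212 and 204 TPM in iCAF, 206, 202 and 200 TPM in myCAF and 222, 231 and 233 TPM in qPSC, so that each qPSC library lay above the other 6. Its log2 fold change between myCAF and qPSC was -0.17 ± 0.06 (adjusted p = 0.516 with all 9 libraries and 0.0410 without iCAF replicate 3). In that second fit 1 of these 4 genes was called, where 2.83% of all genes were. Usmg5 was at 1680 TPM in iCAF replicate 3 and at 923 to 1034 TPM in the other 8.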

How the data were processed

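Messenger RNA of sorted PancOVA cells was sequenced as stranded 50-base single reads, per the labels' protocols. The deposited table gives TPM for each gene symbol in 9 libraries, each column summing to 1000000. The submitters' processing notes name Salmon, R 4.0.1 and DESeq2. Build, annotation and the handling of reads that match several genes: not given in the sources used here. GENCODE M21 (GRCm38) was used for lengths, positions and shared 50-base stretches, and RefSeq (GRCm38.p6) for promoters. Principal transcripts were complete, best by APPRIS and support level, and shortest among ties.

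From TPM, log2(TPM + 1) was fitted by group with limma 3.58.1 (trend) in R 4.3.3 over all 9 libraries. Genes at 1 TPM or more in at least 3 libraries entered, and p-values were adjusted by Benjamini and Hochberg over all 11704. A fold change on this scale understates that of low genes. Each comparison had 3 libraries against 3. Called means an adjusted p under 0.05. Alternatives changed the pseudocount (0.1), the filter, the scaling, the length trend, the libraries fitted and the model. Only the main fit and the fit with the length trend removed were tried on simulated data. Those data had the same noise for every gene and no outlying library, so they cannot speak to iCAF replicate 3. limma-voom was run on reads implied by TPM times the union of exons. Values of single libraries rest on 38870602 to 45317258 implied reads; the spread between libraries includes counting error. Figures and tables used Python 3.11.15, pandas 2.3.3 and matplotlib 3.10.9.

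The members and gene lists were chosen with earlier results of these data known. Named genes were each mitochondrial member, the highest and lowest nuclear member of each complex, every member called, the 3 largest and 3 smallest log2 fold changes per comparison, the tissue isoforms of complex IV and their partners, the Atp5g and Sdh genes and the rows nearest the filter. Genes named beyond these were chosen after their values were seen. Fibroblast, leukocyte and keratin lists were summed per library. The replicate numbers come from the labels and did not pair the libraries (correlations of same-numbered deviations from -0.35 to 0.25), so the fit has no block.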

Additional observations from a re-analysis of the deposited data

How the results depend on the processing

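The counts of members called and the nuclear medians were recomputed under 22 settings, and members under those that kept them, including 1 added after the data were seen (limma-voom without iCAF replicate 3); the gene lists were fitted only with all libraries and without iCAF replicate 3. For iCAF against qPSC the count of members called was 0 in all but the fit without iCAF replicate 2. There it was 1 (1.09% of members, against 1.66% of all genes), so leaving out 1 library gave 0 to 1. For iCAF against myCAF the same held (1 without iCAF replicate 2, 1.09% against 2.39%). For myCAF against qPSC the count was 0 with all libraries (0% of all genes in the main fit). It was 2 with only the 6 libraries compared (2.17% of members, against 3.29% of all genes). When 1 library was left out it was 0 to 1, with 1 without iCAF replicate 3 (1.09%, against 2.83%). Without iCAF replicate 3 it was 3 with the length trend removed (3.30%, against 3.55%). It was 2 with median centring (2.17%, against 2.97%) and 2 with limma-voom (2.20%, against 3.21%), also without that library. The members' shares were thus no greater than the background in these fits. Why the counts differ between fits was not tested. With a replicate block 0 members were called in each comparison. The median of the nuclear members was 0.1585, -0.0023 and 0.1749 for iCAF against qPSC, myCAF against qPSC and iCAF against myCAF. These medians equal those of the main fit by construction, since the block is balanced over the groups. The labels' numbers do not pair the libraries. The median of the nuclear members was 0.3567 for iCAF against qPSC and 0.3757 for iCAF against myCAF when each library was centred on its median, which subtracts the lower median of iCAF replicate 3. For myCAF against qPSC it ranged from -0.0328 to 0.032 when 1 library was left out, the latter without myCAF replicate 3. The median of the mitochondrial members for iCAF against qPSC was 0.2165, 0.2623 and 0.2203 without iCAF replicate 3 and with the length trend removed, centring or limma-voom. Taking ribosomal protein genes out of the total raised the mitochondrial share to 7.17% in iCAF, 6.72% in myCAF and 6.68% in qPSC, by construction. mt-Nd4l ranged from -0.5151 to 0.1585 against qPSC and from -0.5159 to 0.1577 against myCAF when 1 library was left out, and turned from negative to positive without iCAF replicate 3: 0.1585 against qPSC and 0.1577 against myCAF, then 0.1456 and 0.1427 with the length trend removed, 0.2155 and 0.2161 with centring, and 0.1744 and 0.1762 with limma-voom. Ndufv3 in iCAF against myCAF was 0.0074 with centring and all libraries. Direction and threshold were counted only for the members named for their change, in the comparison that named them. Of those values, 499 kept their direction and side of the threshold, 11 came to pass it and 9 reversed. For part of them the direction was fixed in advance, because some settings cannot change a log2 fold change. These are the replicate block, limma without the trend, the filters, the 6 libraries compared and leaving out a library of the third group. Other members were not in that count, and some changed sign: Atp5a1 in iCAF against myCAF ranged from -0.059 to 0.196. TPM carries no depth of its own, and for Cox6a2, at 2 to 24 implied reads per library, counting error limits any comparison.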

Other observations

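Of 78 mitochondrial ribosome genes, which make the machinery that translates the mitochondrial members, 0 passed in any comparison with all 9 libraries. In iCAF against myCAF 70 of the 78 had a positive log2 fold change, with a median of 0.15, and 66 were positive with a median of 0.09 without iCAF replicate 3, against medians of -0.15 and -0.03 over all genes tested. In myCAF against qPSC 56 of 78 were negative, with a median of -0.04. Without iCAF replicate 3, Mrps34 (-0.51, adjusted p = 0.0117), Mrps15 (-0.37, 0.0172) and Mrpl38 (-0.25, 0.0243) fell in myCAF against qPSC by limma with Benjamini-Hochberg adjustment, and Mrpl18 rose in iCAF against qPSC (0.33, 0.0305). These are 3 and 1 of 78 genes, where 2.83% and 1.51% of all genes were called in the same fits, shares close to the background.

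Of 20 genes of the citric acid cycle and pyruvate entry, 0 passed with all 9 libraries. Mpc2, a subunit of the mitochondrial pyruvate carrier, fell in myCAF against qPSC by 0.44 on the log2 scale without iCAF replicate 3 (adjusted p = 0.0172) and was higher in iCAF than in myCAF by 0.43 (0.0486). Mpc2 was 1 of 20 genes in each of these comparisons, where 2.83% and 0.599% of all genes were called without that library. With all 9 libraries the same differences had an adjusted p of 0.368 and 0.123. Of 77 cytosolic ribosomal protein genes, 76 had a positive log2 fold change in iCAF against qPSC, with a median of 0.20, and 55 with a median of 0.02 without iCAF replicate 3, with 0 called in either fit.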
